A study of Bos taurus with 12 samples.

Results

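BDH1, OXCT1, ACAT1 and SLC16A1 are the genes by which a tissue takes up ketone bodies and oxidizes them, and they were followed here in the mammary gland (MG) of early lactation Holstein cows. They were chosen by name, through the RefSeq accession that the array gives for each probe, and all 4 genes were found, with 8 probes among 43653. These 4 are part of 12639 genes that could be named on the array. The 12 multiparous cows were 24 ± 3 days in milk. The 6 control cows (CONT) ate the lactation diet without limit, and the 6 restricted cows (REST) received that ration diluted with barley straw to 48% of dry matter for 4 d. In every cow of both groups a healthy rear gland had been infused with 50 µg of lipopolysaccharide (LPS) on d 3 and was biopsied 24 h later, so MG without LPS was not analysed here and both groups carry the inflammation. A biopsy is whole tissue, in which fewer cells of a type and less RNA per cell cannot be told apart.

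Ketone bodies are made mostly by the liver when fat is mobilized, and in ruminants also by the rumen wall from butyrate. Beta-hydroxybutyrate (BHBA) and acetoacetate travel in blood and enter cells through proton-linked monocarboxylate transporters, of which SLC16A1 (MCT1) is the most widespread and also carries lactate, pyruvate and acetate. Inside the mitochondrion BDH1 oxidizes BHBA to acetoacetate, OXCT1 transfers coenzyme A from succinyl-CoA to acetoacetate in the step that commits it to oxidation, and ACAT1 splits acetoacetyl-CoA into acetyl-CoA, which enters the tricarboxylic acid cycle. In the lactating ruminant MG, BHBA serves both as a fuel and as a primer for new milk fatty acids, beside acetate, their main carbon source. The comparison asks whether these genes differ between diets in a gland under LPS, in cows whose energy supply was cut.

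Signals are log2 intensities minus the 75th percentile of the same array, so that 0 is the 75th percentile and a step of 1 is a doubling. Probes of different genes bind with different strength, and levels are therefore compared between cows and not between genes. The 75th percentile of intensity lay between 386.9 and 1184 over the 12 arrays, and 57.6 to 78.1% of the probes were well above background. The number of arrays, 6 per group, limits the precision. The 12 arrays lay on 3 slides, each scanned by itself, with 3 CONT and 1 REST arrays on slide 1, 1 and 3 on slide 2 and 2 and 2 on slide 3. The tissue carried its own markers, since the 7 matched genes of 8 epithelial markers (caseins, whey proteins and keratins) were well above background, and CSN2 was not matched. Over the whole array limma called 0 probes (0%) at an adjusted p under 0.05, whether adjusted by Westfall-Young or by Benjamini-Hochberg. Unadjusted, 1143 probes (2.62%) fell under 0.05, 382 (0.875%) with a lower and 761 (1.74%) with a higher mean in REST (661 and 857 with quantile normalization, 205 and 1012 with slide as a block, 308 and 1431 without REST cow 1058), and CONT and REST values did not overlap in 56 probes (0.128%).

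None of the 4 genes was found to differ between REST and CONT, and 0 of their 8 probes had an unadjusted p under 0.05, against 2.62% of all probes. Each of the 8 probes was detected well above background in all 12 cows, none was saturated, and the groups overlapped in each. The adjusted p was 1 for every probe (limma, Westfall-Young). What set the genes apart from each other was the spread between cows, which was very wide in BDH1 and SLC16A1, moderate in OXCT1 and narrow in ACAT1.

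**Figure D1:**
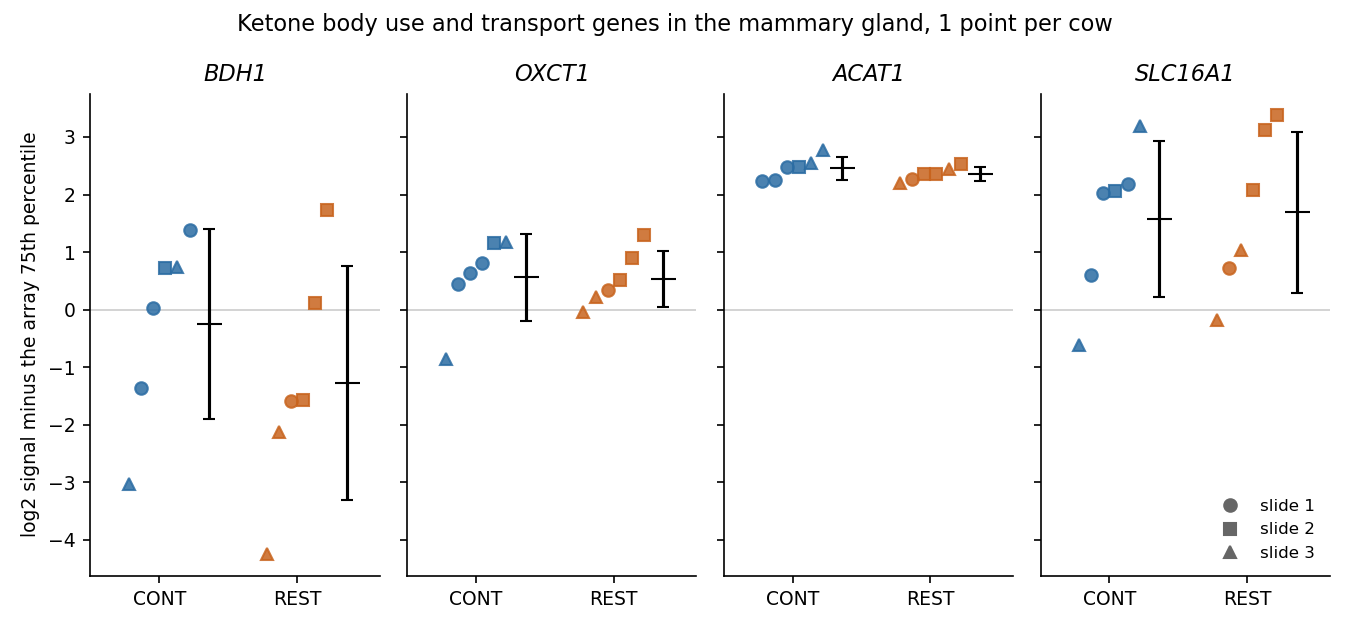
Log2 signal of the brightest probe of each gene (vertical axis, relative to the array's 75th percentile) in CONT and REST, 1 point per cow, with the shape of the point giving the slide and the bar giving mean ± SD (n = 6 per group). The CONT and REST points overlap in every panel, BDH1 runs from -4.24 to 1.74 and ACAT1 only from 2.20 to 2.77.

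SLC16A1 (NM_001037319) is the gate for BHBA, acetate and lactate across the cell membrane. On its brightest probe the lowest CONT cow had -0.61, the median was 2.04 and the highest was 3.20, and in REST the lowest was -0.17, the median 1.56 and the highest 3.37. The ranges of both diets thus overlapped almost fully. CONT averaged 1.58 ± 1.35 (SD, n = 6) and REST 1.69 ± 1.40 (SD, n = 6), with a log2 FC of 0.12 (standard error 0.72, exact permutation test, p = 0.844). The 95% interval of this difference, -1.44 to 1.67, corresponds to an FC between 0.369 and 3.18, so changes of about 3-fold in either direction lie within it. The second probe of SLC16A1 had a log2 FC of -0.10 with a standard error of 0.70, and the last probe 0.032 with 0.69. All 3 probes ordered the cows alike, with Pearson's r of 0.974 to 0.994 between them over the 12 arrays, so the spread between cows was not that of a single probe.

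The direction of the SLC16A1 difference depended on the slide. REST minus CONT was -0.87 on slide 1, 0.79 on slide 2 and -0.86 on slide 3, and with slide as a block the log2 FC was -0.37 (standard error 0.67, adjusted p = 1, limma). Of its REST cows, the 3 on slide 2 had the 3 highest values. Slides 1 and 2 hold a single array of one of the groups, so the within-slide values have no spread of their own there.

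BDH1 (NM_001034600), the dehydrogenase that turns BHBA into acetoacetate, had the largest mean difference and the widest spread of the 4 genes. In CONT its log2 signal was -3.02 in the lowest cow, 0.38 at the median and 1.39 in the highest, and in REST -4.24, -1.58 and 1.74. Both the lowest and the highest cow of the study were in REST. CONT averaged -0.25 ± 1.65 (SD, n = 6) and REST -1.28 ± 2.04 (SD, n = 6), and the log2 FC of -1.03 (standard error 0.96) was smaller than the SD within either group (exact permutation test, p = 0.364). Its 95% interval ran from -3.11 to 1.05. In 4 of the 6 REST cows BDH1 was below the CONT mean.

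The mean of BDH1 was lower in REST on each slide, by -1.61 on slide 1, -0.63 on slide 2 and -2.03 on slide 3, and with slide as a block the log2 FC was -1.49 (adjusted p = 1, limma). It stayed negative with each cow left out, between -1.63 without REST cow 1015 and -0.43 without REST cow 1018. BDH1 had a single probe, so no other probe bears on these values.

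OXCT1 (NM_001076070), the CoA transferase of the pathway, had nearly the same mean in both diets. Its brightest probe lay at -0.86 in the lowest CONT cow, 0.72 at the median and 1.18 in the highest, and at -0.05, 0.43 and 1.30 in REST. CONT cow 8027 lay far below the other 5 CONT cows, of which the next was at 0.44. CONT averaged 0.56 ± 0.75 (SD, n = 6) and REST 0.54 ± 0.49 (SD, n = 6), with a log2 FC of -0.020 (standard error 0.34, exact permutation test, p = 0.961) and a 95% interval of -0.77 to 0.73. Without CONT cow 8027 the log2 FC was -0.30. The other OXCT1 probe differed by -0.20 (standard error 0.31, exact permutation test, p = 0.576) and correlated with the first at r = 0.864. It stayed negative with each cow left out, between -0.48 without CONT cow 8027 (standard error 0.20, limma, unadjusted p = 0.0337, adjusted p = 1) and -0.074 without REST cow 1018. With slide as a block the differences of the first and the other probe were -0.19 and -0.18.

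ACAT1 (NM_001046075), the thiolase that ends the pathway and also serves isoleucine breakdown, was the most even of the 4 genes. In CONT its brightest probe lay between 2.24 and 2.77 with a median of 2.47, and in REST between 2.20 and 2.54 with a median of 2.36. The 2 highest values were those of CONT cows and the lowest was that of a REST cow. CONT averaged 2.46 ± 0.20 (SD, n = 6) and REST 2.36 ± 0.12 (SD, n = 6), with a log2 FC of -0.093 (standard error 0.14, exact permutation test, p = 0.355). Its 95% interval, -0.39 to 0.21, allows an FC between 0.763 and 1.15, the narrowest limits of the 4 genes. The other ACAT1 probe differed by -0.037 (standard error 0.17), and its r with the first was 0.650. Its sign changed with some cows left out, to between -0.12 and 0.046.

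**Figure D2:**
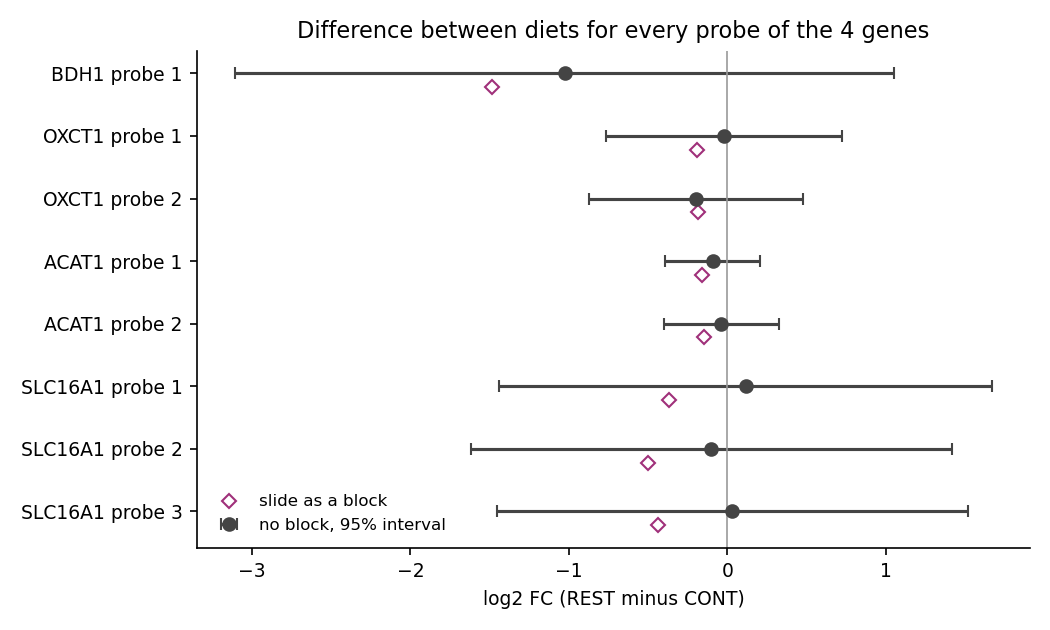
Log2 FC of REST against CONT (horizontal axis) for each of the 8 probes, with the 95% interval of limma as a bar and, below each, the value with slide as a block as an open diamond. All 8 intervals include 0, those of BDH1 and SLC16A1 are the widest, and the 8 diamonds lie below 0.

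The genes around this step were described from 5 lists of 36 genes, of which 30 were matched and SLC16A5, SLC16A8, SLC16A9, SLC16A11, SLC16A12 and EMB were not. With the brightest probe for each, 0 of the 30 had an unadjusted p under 0.05, against 334 of all 12639 named genes (2.64%). The median log2 FC of the 30 genes was -0.069, and 20 were lower and 10 higher in REST. Over all named genes the median was -0.034 and 56.5% were lower, against 66.7% of the lists.

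In the list of ketone body synthesis and related enzymes, 6 of 8 genes had a lower and 2 a higher mean in REST, and the median log2 FC was -0.16. HMGCLL1, a lyase-like gene, had the lowest log2 FC (-1.01, standard error 0.56), but its probe was well above background on only 3 CONT and 1 REST arrays and its other probe on 0 CONT and 1 REST arrays, so that the latter gives no usable difference. The log2 FC of HMGCLL1 was -0.29 with normexp background correction, -0.40 with slide as a block and -0.18 as a mean over both probes, the dimmer one included. HMGCS1, the cytosolic synthase that feeds cholesterol synthesis, ran from 0.44 to 1.54 in CONT and from -0.36 to 0.87 in REST, and its log2 FC was -0.50 (standard error 0.25, exact permutation test, p = 0.0736).

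The other monocarboxylate transporters of the SLC16 family had no common direction, with 4 of 8 genes higher, 4 lower and a median log2 FC of -0.0017. SLC16A3 (MCT4), best known for lactate export, had the lowest log2 FC (-0.35, standard error 0.63), with signals of -1.45 to 1.34 in CONT and -2.56 to 1.30 in REST, and was -0.041 with slide as a block. SLC16A14, an orphan member, had the highest (0.27, standard error 0.36) on a probe detected in 2 CONT and 3 REST cows. This value was 0.53 with slide as a block and lay between 0.076 without CONT cow 0015 and 0.51 without CONT cow 0055 when single cows were left out. With normexp the log2 FC of SLC16A14 changed sign to -0.0062. The probe of SLC16A4 was not detected above background in any cow.

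Among ancillary and other carriers, 2 of 5 genes were higher and 3 lower (median log2 FC -0.067). BSG (basigin), the chaperone that brings SLC16A1 to the membrane, was even among cows, at 2.30 to 2.90 in CONT and 2.18 to 2.82 in REST. SLC5A12, a sodium-coupled lactate carrier, had the highest log2 FC (0.27, standard error 0.28, over 6 CONT and 5 REST cows). The spot of REST cow 0078 was left out as an outlier, and with outlier spots kept the log2 FC was 0.13. The other probe of SLC5A12 lay far lower (-4.47 against 6.00 in CONT), and which of them reads the gene was not tested. The lowest mean difference was that of SLC5A8, detected in 1 CONT cow and no REST cow, for which an FC is left out. MPC1 and MPC2, which form the mitochondrial pyruvate carrier, differed by -0.07 (standard error 0.57) and -0.10 (standard error 0.48).

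Of the 6 genes of acetate and lactate handling, 5 were lower and 1 was higher, with a median log2 FC of -0.26. On its brightest probe no list gene passed an unadjusted p of 0.05, but ACSS1 and HMGCLL1 did with quantile normalization and without CONT cow 8027 (ACSS1 -0.60 and -0.79, HMGCLL1 -1.06 and -1.32). ACSS1 also did so without REST cow 1058 (-0.71), but was -0.44 with slide as a block and -0.40 without CONT cow 1024. HMGCLL1 passed without CONT cow 0015 (-1.24) and HMGCS1 without CONT cow 1076 (-0.58) or REST cow 1018. ACSS1, the mitochondrial enzyme that activates acetate for oxidation, had the lowest, from a median of 5.31 (4.25 to 6.19) in CONT to 4.58 (4.39 to 5.30) in REST, and its log2 FC was -0.58 (standard error 0.28, exact permutation test, p = 0.0714). LDHB, the lactate dehydrogenase subunit of oxidative tissues, had the highest (0.085, standard error 0.23). In the list for sensing, FFAR2 (0.12, standard error 0.23) and HCAR1 (-0.085, standard error 0.41), receptors for short-chain fatty acids and for lactate, had the highest and the lowest log2 FC of 3 genes, with a median of -0.053.

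**Figure D3:**
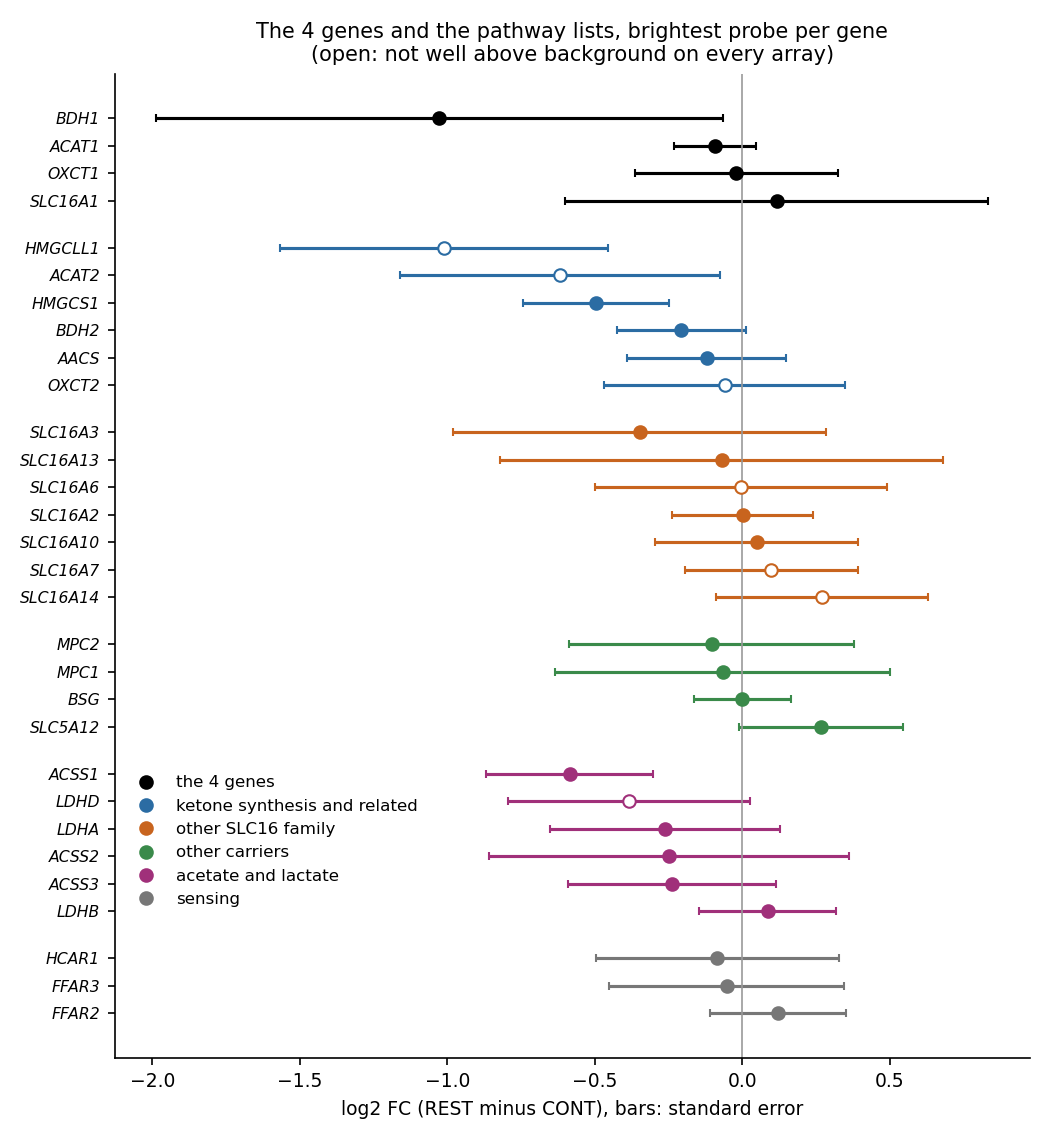
Log2 FC of REST against CONT (horizontal axis, bars give the standard error) for the brightest probe of the 4 genes and of list genes reported here, coloured by list, with open circles for probes not well above background on every array and without SLC16A4 and SLC5A8, which no cow of at least 1 group had above background. BDH1 and HMGCLL1 lie lowest, at -1.03 and -1.01, and no gene had an unadjusted p under 0.05.

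The spread between cows differed among the 4 genes. The SD within groups was 1.85 for BDH1, which was larger than in 99.7% of the 9001 named genes whose brightest probe was detected above background and had a value in all cows, and 1.38 for SLC16A1, larger than in 98.7%. It was 0.64 for OXCT1, larger than in 84.1% of these genes, and 0.16 for ACAT1, larger than in only 7.29%, while the median gene had 0.33. Between the lowest and the highest cow, signals differed 63.0-fold in BDH1, 15.8-fold in SLC16A1, 4.48-fold in OXCT1 and 1.48-fold in ACAT1. Without REST cow 1018 the range of BDH1 was 27.2-fold, with normexp it was 18.8-fold, and without CONT cow 8027 that of OXCT1 was 2.55-fold. Diet took 8.44% of the variance of BDH1 and 0.213% of that of SLC16A1, and slide took 33.5% and 35.7%. Each share was computed for diet or slide alone, was not tested, and includes what chance gives. Slide has more levels than diet, and the diets were unequal over slides. The shares therefore overlap and cannot be compared with each other.

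BDH1, OXCT1 and SLC16A1 were high and low in the same cows. CONT cow 8027 and REST cow 1018 had the 2 lowest values of each of these genes, and REST cow 1018 was lowest in BDH1 while CONT cow 8027 was lowest in the other two. REST cows 1015 and 0049 and CONT cow 0015 had the 3 highest values of SLC16A1. Over the 12 cows, SLC16A1 and OXCT1 had a Pearson's r of 0.895 (permutation test, p = 6e-05, adjusted over 6 pairs p = 0.00036) and a Spearman's rho of 0.853 (permutation test, p = 0.00089, adjusted p = 0.00267). SLC16A1 and BDH1 had an r of 0.864 (permutation test, p = 0.0003, adjusted p = 0.0009) and a rho of 0.783 (p = 0.00359, adjusted p = 0.00718, permutation test). BDH1 and OXCT1 had an r of 0.812 (permutation test, p = 0.00115, adjusted p = 0.0023) and a rho of 0.860 (p = 0.00071, adjusted p = 0.00267, permutation test).

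The permutation tests moved cows freely over diets and slides, so their p-values take no account of slides shared by arrays. The relations were recomputed without extreme cows, within diets and within slides. The r values within diets and slides were not tested. Without the 2 cows farthest from the median of the first gene of each pair, r was 0.853 for BDH1 and OXCT1, 0.798 for BDH1 and SLC16A1 and 0.855 for OXCT1 and SLC16A1. After subtraction of group means the r values were 0.843, 0.918 and 0.896, and after subtraction of group and slide means 0.742, 0.896 and 0.850. In the same order, they were 0.917, 0.905 and 0.917 within CONT and 0.848, 0.934 and 0.925 within REST. With both CONT cow 8027 and REST cow 1018 left out, the r values were 0.763, 0.756 and 0.814 (permutation tests, adjusted p = 0.0303 for each).

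Over all 12 cows ACAT1 was not found to follow this order. Its r was 0.11 with BDH1, -0.23 with OXCT1 and 0.075 with SLC16A1 (permutation tests, adjusted p = 0.820, 0.687 and 0.820), and its rho was 0.224, 0.196 and 0.371 (permutation tests, adjusted p = 0.541, 0.541 and 0.352). Within REST its r was 0.777 with BDH1, 0.499 with OXCT1 and 0.741 with SLC16A1, and within CONT -0.55, -0.55 and -0.32, values from 6 cows each that were not tested. CONT cow 8027, lowest in SLC16A1, was highest in ACAT1. Without this cow the r of ACAT1 with SLC16A1 was 0.724 (permutation test, adjusted p = 0.0224) and that with OXCT1 was 0.548 (adjusted p = 0.0834), so the low r of ACAT1 with SLC16A1 rested on a single animal. The 0.724 was the highest value with single cows left out. Without the 2 cows farthest from the median of the first gene, no ACAT1 pair passed. The r was then 0.630 with SLC16A1, 0.648 with OXCT1 and -0.33 with BDH1 (permutation tests, adjusted p = 0.0681, 0.0681 and 0.362).

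**Figure D4:**
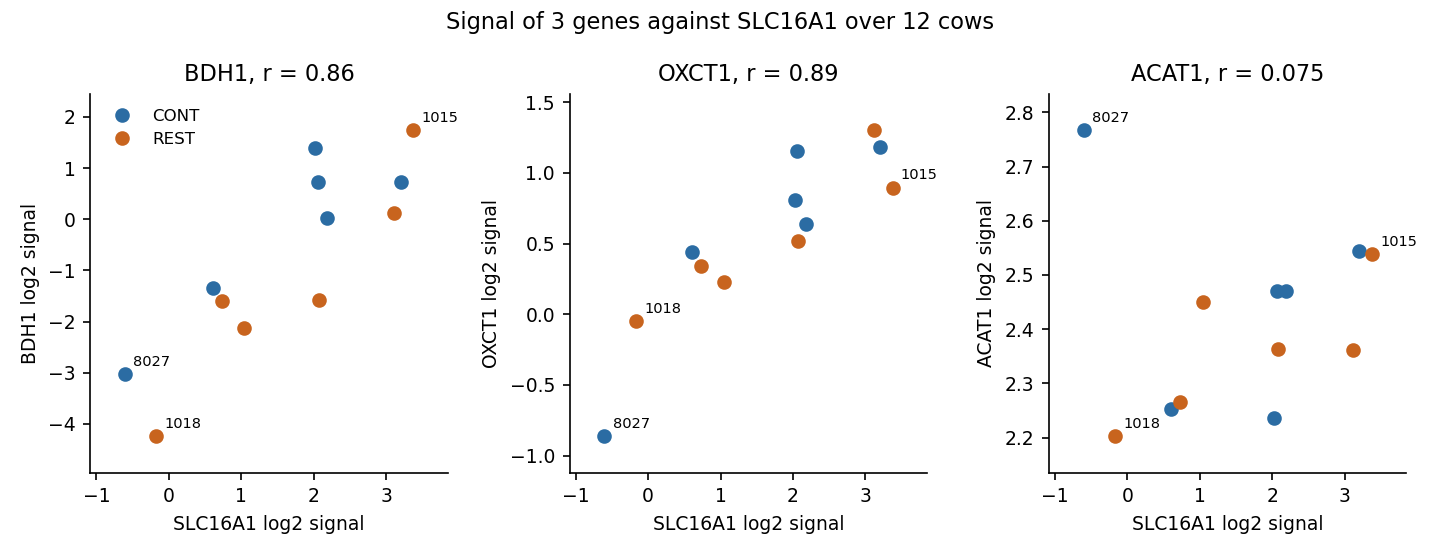
Log2 signal of BDH1, OXCT1 and ACAT1 (vertical axes, each with its own scale) against SLC16A1 (horizontal axis), 1 point per cow, coloured by diet, with 3 cows numbered. BDH1 and OXCT1 rise with SLC16A1 in both diets (r = 0.86 and 0.89), and in the ACAT1 panel (r = 0.075) CONT cow 8027 stands at the upper left, away from the other cows.

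The parallel order was shared with many other genes. Among 9000 other named genes well above background on all arrays, 855 (9.50%) had an r above 0.8 with SLC16A1 and 559 (6.21%) an r below -0.8. For OXCT1 these counts were 636 and 350, for BDH1 425 and 203, and for ACAT1 16 and 12. SLC16A1 was the 128th most similar gene to BDH1 and the 138th to OXCT1, so the 3 genes were not each other's closest neighbours.

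The genes most like each of the 4 were read from the same 12 arrays, as a description without a test. Closest to SLC16A1 were PEMT, which makes phosphatidylcholine by methylation (r = 0.986), GALM, the mutarotase of galactose and glucose (0.982), and SLC38A3, a glutamine transporter (0.979). GALM ran from 2.79 to 5.86 in CONT and from 2.33 to 6.07 in REST. Closest to BDH1 were NAA20, a catalytic subunit of an N-terminal acetyltransferase (r = 0.963), and HIBADH, a mitochondrial dehydrogenase of valine breakdown (0.956). HIBADH ran from 1.00 to 2.74 in CONT and from 0.87 to 3.06 in REST.

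Closest to OXCT1 were NAB2, a corepressor of EGR factors (r = 0.961), UPP1, a uridine phosphorylase (0.961), and MOB3A, a kinase adaptor (0.956). Closest to ACAT1 were RAB5A, a GTPase of early endosomes (0.910), the ribosomal protein gene RPL39 (0.862) and GOLPH3, a Golgi protein (0.856), and all of them had a narrow range. RAB5A ran from 2.12 to 2.50 in CONT and from 2.12 to 2.40 in REST.

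**Figure D5:**
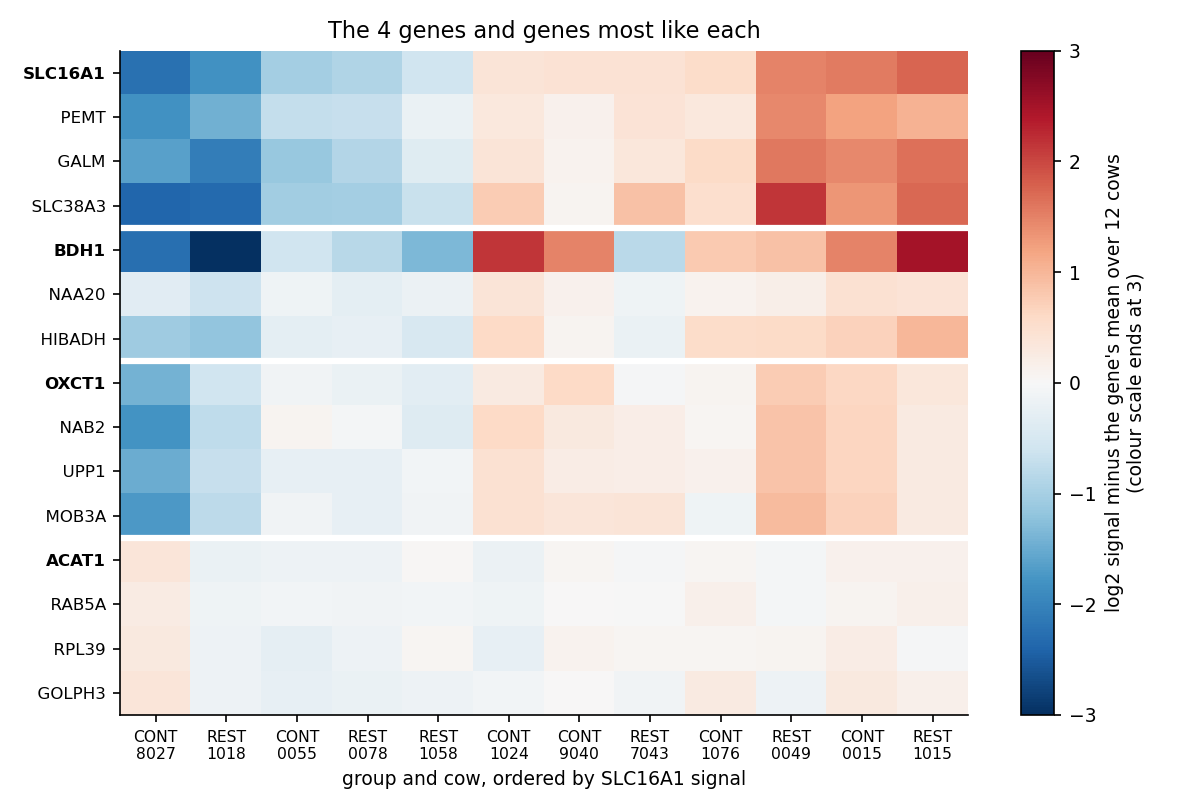
Log2 signal minus the mean of the gene over 12 cows (colour, ending at 3) for the 4 genes, in bold, and the named genes most like each, with cows ordered by their SLC16A1 signal. In SLC16A1, BDH1, OXCT1 and their neighbours the blue cows are at the left, with CONT cow 8027 and REST cow 1018 at the end. Colour is not scaled to the spread of a gene, so NAA20, ACAT1 and the neighbours of ACAT1 are pale in every cow.

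Some genes of the lists followed the same order of cows and some the opposite order. Of the 19 list genes well above background and with a value on all arrays (SLC5A12 lacked 1), MPC1 was most like SLC16A1 (r = 0.964), followed by MPC2 (0.945) and SLC16A10, an aromatic amino acid transporter (0.907). ACSS2, the cytosolic enzyme that activates acetate for fatty acid synthesis, was most like BDH1 (0.942), and SLC16A13 (0.890) and ACSS2 (0.886) were most like OXCT1. ACSS3, a mitochondrial propionate-activating enzyme, and LDHA, the lactate dehydrogenase subunit of glycolytic tissues, had the lowest r with all 3 genes, at -0.80 and -0.77 with SLC16A1, -0.70 and -0.51 with BDH1 and -0.78 and -0.51 with OXCT1. ACSS2 was lowest in CONT cow 8027 (0.89) and REST cow 1018 (1.16), the cows lowest in the 3 genes, and was 2.46 to 4.47 in the other cows.

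Some marker sums had an order of cows like that of the 3 genes. Of 36 relations of the 4 genes with marker sums and array measures, added after the values had been seen, 7 had an adjusted p under 0.05 (permutation tests), and for BDH1 only that with the erythrocyte sum did. The summed signal of the 7 epithelial markers ran from 1543 to 4351 in CONT and from 2088 to 5878 in REST, in units of the array's 75th percentile. Its r was 0.884 with SLC16A1 (rho 0.825, permutation test, p = 0.0002, adjusted p = 0.0024, and 0.831 without the 2 cows farthest from the median sum). It was 0.816 with OXCT1 (rho 0.769, permutation test, p = 0.00096, adjusted p = 0.00864), but 0.607 without the 2 farthest cows, and 0.604 with BDH1 (rho 0.629, permutation test, p = 0.0384, adjusted p = 0.115). The whey protein gene LALBA was lowest in CONT cow 8027 (6.94) and REST cow 1018 (7.34). The keratins KRT8 and KRT18, on the same list, ran the other way, with an r of -0.77 and -0.86 with SLC16A1, and KRT18 was at 4.50 and 3.98 in these cows.

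The sum of the 6 erythrocyte markers, 4.43 to 20.9 in CONT and 8.30 to 26.9 in REST, had an r of 0.95 with OXCT1 (rho 0.930, permutation test, p = 3e-05, adjusted p = 0.00054), 0.894 with SLC16A1 (rho 0.846, permutation test, p = 1e-05, the smallest these resamples can give, adjusted p = 0.00036) and 0.744 with BDH1 (rho 0.839, permutation test, p = 0.0041, adjusted p = 0.0295). Without the 2 cows farthest from the median sum these values were 0.864, 0.897 and 0.862. That sum was nearly all HBA, since ALAS2 was not detected above background in any cow and HBB in only 1. The sum of 5 matched adipose markers (ADIPOQ and PLIN4 were not matched) ran from 7.47 to 164 in CONT and from 100.3 to 242 in REST, and CONT cow 8027 was the lowest. Its r with OXCT1 was 0.783 (rho 0.469, permutation test, p = 0.00861, adjusted p = 0.0443) and 0.190 without the 2 farthest cows, so that this relation rested on them. With SLC16A1 the adipose sum had an r of 0.679 (rho 0.559, permutation test, p = 0.00491, adjusted p = 0.0295), and 0.414 without the same cows (permutation test, unadjusted p = 0.235), so this relation too was lost without them. Its r with BDH1 was 0.436 (permutation test, adjusted p = 0.321). That sum was nearly all FABP4, and the other adipose genes went both ways. LIPE and LEP had a positive r with OXCT1 (0.603 and 0.396), and PLIN1 and CIDEC a negative one (-0.28 and -0.66). The signs were the same with SLC16A1 and BDH1. None of these other genes was well above background on every array. Leukocyte, skeletal muscle and connective tissue marker sums had r of -0.63 to 0.35 with the 3 genes, with permutation tests at adjusted p of 0.0940 or more. Without the 2 cows farthest from its median, the leukocyte sum had higher r. It was 0.679 with OXCT1, 0.565 with SLC16A1 and 0.451 with BDH1 (permutation tests, unadjusted p = 0.0306, 0.0912 and 0.192). For the muscle and connective tissue sums the same step gave r of -0.38 to 0.034. Single genes of these lists went both ways. CD3E, a subunit of the T cell receptor complex, had an r of -0.90 with SLC16A1, -0.89 with OXCT1 and -0.82 with BDH1, while CD79A, of the B cell receptor, had 0.844, 0.869 and 0.733. In the skeletal muscle list MYH7 and CKM had an r of 0.908 and 0.850 with OXCT1, while the other 4 genes had -0.26 (DES) to 0.00020 (MYL1).

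The 5 connective tissue markers had a median log2 FC of -0.65, with negative values from -0.84 to -0.38 in each, and sums of 48.5 to 66.0 in CONT and 22.5 to 67.2 in REST. Of them COL1A1, COL1A2 and LUM had an unadjusted p under 0.05 (limma), against 2.64% of all named genes, and the adjusted p was 1 for all 5. By the exact permutation test COL1A1 did not pass (p = 0.0649), while COL1A2 (p = 0.0325) and LUM (p = 0.00866) did. Of the other markers TNNT3, of the skeletal muscle list, also had an unadjusted p under 0.05 (log2 FC 1.12, adjusted p = 1, limma), on a probe detected in 4 CONT and 6 REST cows. Neither the part of the cell types in the order of the cows nor that of the amount of signal on the arrays was tested. The 75th percentile of the array, which is itself subtracted from each signal, had an r of -0.70 with SLC16A1, -0.64 with OXCT1 and -0.36 with BDH1 (permutation tests, adjusted p = 0.0561, 0.0920 and 0.436), and -0.53, -0.52 and -0.15 without the 2 farthest cows. The percent of probes well above background on an array had an r of -0.60 with BDH1, -0.47 with OXCT1 and -0.43 with SLC16A1 (permutation tests, adjusted p = 0.115, 0.311 and 0.324). Without the 2 cows farthest from its median, REST cow 0078 and CONT cow 1024, these values were -0.78, -0.77 and -0.87 (permutation tests, unadjusted p = 0.00885, 0.00821 and 0.00129).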

How the data were processed

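Total RNA (100 ng) from 12 MG biopsies was labeled with Cy3 and hybridized by the authors to one-color Agilent bovine arrays, 1 per cow. The deposited spot intensity is the background-subtracted signal of Feature Extraction 11.0.1.1, without normalization between arrays. The deposited matrix of processed intensity held the same values (largest log2 difference 0). Here intensities were log2 transformed and the 75th percentile of the array was subtracted. Outlier-marked spots were left out, which affected 0 spots of the 4 genes. Spots of a probe were averaged. REST and CONT were compared over 43653 probes with limma 3.58.1 (R 4.3.3), two-sided. P-values were adjusted by Westfall-Young over 100 regroupings of the cows, the true one included (smallest p 0.01), or by Benjamini-Hochberg. For single genes, an exact permutation test over all divisions was used, whose smallest p is 0.00216. The probe with the highest mean over 12 arrays stood for a gene, and every probe of the 4 genes was also tested. Correlations used permutation tests of 100000 resamples, two-sided (numpy, scipy), and figures matplotlib.

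Gene symbols came from RefSeq accessions matched without version to the ARS-UCD2.0 gene table, which named 26832 probes. The array annotation uses an earlier assembly, so no coordinates are given. No sequences of the probes were used here.

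The genes, lists and tests were chosen with earlier results of these data known. Named genes were the 4 genes, list genes with an unadjusted p under 0.05 (there were 0), the highest and lowest log2 FC of each list, and the 3 genes most like each of the 4 by r. A few genes that this rule or the lists hold stay in the counts, medians and sums and are not reported here by name. HMGCS1, BSG, MPC1, MPC2, ACSS2, ACSS3, LDHA, SLC16A10, SLC16A13, SLC16A4 and the markers named were chosen after their values were seen. Alternatives were quantile normalization, normexp (offset 50, on the median spot signal), the deposited matrix, a filter on dim probes, outlier spots kept, slide as a block, the 75th percentile over detected probes, a mean of all the probes of each gene, and leaving out each cow. Leaving out 2 cows together, FABP4 without each cow and the ranges without single cows were added after seeing the data. The procedure was tested on simulated data. The cows are separate animals, and RNA was not pooled.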

Additional observations from a re-analysis of the deposited data

Results flagged for a closer look

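Dixon's test at the 95% level was applied to 34 groups (the 8 probes and 9 list genes named for their log2 FC, in each diet), 33 of 6 cows and 1 of 5, SLC5A12 in REST, and set apart 1 cow in 2 of them, where chance gives about 1.7 such groups. Both were OXCT1 in CONT and both concerned cow 8027. On the brightest OXCT1 probe this cow had a log2 signal of -0.8619, while the other 5 CONT cows lay between 0.4382 and 1.181. On the other OXCT1 probe it had -2.187, against -0.6914 to -0.2103 in the others. The same cow was the lowest of CONT for BDH1 and SLC16A1 and the highest for ACAT1.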

How the results depend on the processing

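No probe was called at an adjusted p under 0.05 under the alternatives run over all probes (limma), and 0 of 29460 means over the probes of a gene were. Of 187 values from changed settings 174 kept their direction and their call. With slide as a block, SLC16A1 changed sign to -0.37, its probe 3 to -0.44 and HCAR1 to 0.16. OXCT1 changed to 0.010 with the 75th percentile over detected probes. With normexp, SLC16A14 changed to -0.0062, FFAR2 to -0.0038 and the probes with an unadjusted p under 0.05 to 381. The r of BDH1 and ACAT1 changed to -0.094 with quantile normalization and -0.15 with normexp, and that of ACAT1 and SLC16A1 to -0.14 and -0.15. With CONT cow 8027 and REST cow 1018 both left out, chosen after seeing the data, the r of OXCT1 and ACAT1 changed to 0.392. List genes lower at an unadjusted p under 0.05 numbered 2 with quantile normalization. The cause was not tested.

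When single cows were left out, log2 FC ranged from -0.30 to 0.10 for OXCT1, from -0.32 to 0.49 for SLC16A1, from -0.48 to 0.27 for its probe 2, from -0.35 to 0.40 for its probe 3 and from -0.12 to 0.046 for ACAT1 probe 2. It ranged from -0.019 to 0.22 for FFAR2, from -0.44 to 0.096 for HCAR1, from -0.059 to 0.23 for LDHB, from -0.32 to 0.19 for MPC2, from 0.076 to 0.51 for SLC16A14 and from -0.67 to 0.10 for SLC16A3. The lowest values of both OXCT1 probes and of all 3 SLC16A1 probes were those without CONT cow 8027. BDH1 (-1.63 to -0.43), OXCT1 probe 2 (-0.48 to -0.074) and ACAT1 (-0.14 to -0.031) kept their sign. List genes lower at an unadjusted p under 0.05 numbered 0 to 2, and all probes under it 825 to 1739, the highest without REST cow 1058. The r ranged from -0.18 to 0.55 for BDH1 and ACAT1, from -0.41 to 0.55 for OXCT1 and ACAT1 and from -0.12 to 0.72 for ACAT1 and SLC16A1, the highest each time without CONT cow 8027. It stayed between 0.797 and 0.916 for the 3 pairs without ACAT1. No paired analysis was possible because the diets share no cow numbers.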

Other observations

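The 2 probes of SLC5A12, a sodium-coupled lactate carrier, differed widely in level as well as in the size of the change. Which of them reads the level of the gene was not tested, nor were the 2 differences compared. The brightest had a mean of 6.00 in 6 CONT and 6.26 in 5 REST cows, a difference of 0.27. The dimmer had -4.47 and -2.83, a difference of 1.65 (standard error 0.55, unadjusted p = 0.0108, adjusted p = 1.00, limma, Benjamini-Hochberg). It was detected in 3 CONT and 6 REST cows, so that its CONT mean includes signals not well above background. This probe was chosen after its value was seen.

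FABP4, a lipid carrier of adipocytes that held most of the adipose marker sum, had a log2 FC of 1.20 (standard error 0.62, exact permutation test, p = 0.0519). Its signal was 2.87 in CONT cow 8027 and 5.78 to 7.35 in the other CONT cows, and without this cow the log2 FC was 0.59 (standard error 0.31, unadjusted p = 0.0801, adjusted p = 1, limma). With single cows left out it passed an unadjusted p of 0.05 (limma) only without CONT cow 0015, at a log2 FC of 1.49 and an adjusted p of 1. In the same list, the lipid droplet gene PLIN1 was detected in 1 CONT and 2 REST cows. BDH2, a cytosolic dehydrogenase named after BDH1, had the highest r with ACAT1 (0.560) of the 19 list genes well above background and with a value on all arrays, and its r with BDH1 was 0.54.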
